A study of Rattus norvegicus with 15 samples.

Results

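Apolipoproteins are the protein coat of lipoproteins, the particles that carry cholesterol and triglyceride in blood. Messenger RNA of 9 apolipoprotein genes (Apoa1, Apoa2, Apoa4, Apoa5, Apob, Apoc1, Apoc2, Apoc3 and Apoe) and of Lcat, lecithin-cholesterol acyltransferase, was measured in rat liver. Members were found by gene name: every non-control probe whose gene name, current or older, was that of one of these 10 genes was taken. This gave 15 of the 41012 non-control probes on the array, for 10 of the 15097 gene symbols that its probes could be named with. Apob had 5 probes, Apoc3 had 2 and each of the other 8 genes had 1. All 15 probes were well above background in every rat.

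The rats were 15 female Wistar Crl:WI animals aged 2 to 3 months. Fipronil, a phenylpyrazole insecticide, was given to 8 of them for 14 days at a daily oral dose of 3 mg/kg. The other 7 received the vehicle alone, an aqueous mixture of methylcellulose (0.5%) and Tween 80 (0.01%). Each rat gave 1 piece of the large liver lobe and 1 one-colour array, and the 4 slides of arrays each held rats of both groups.

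The liver secretes very low density lipoprotein, built around one molecule of apolipoprotein B, and most of the apolipoprotein A-I of high density lipoprotein (HDL). The small C apolipoproteins and apolipoprotein E move between particles, where they set how fast triglyceride is hydrolysed and how fast remnants are taken up. LCAT circulates on HDL and esterifies its free cholesterol. These are among the most abundant messenger RNAs of hepatocytes.

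No probe of the 10 genes changed with fipronil at an adjusted p under 0.05 (limma over all probes, Benjamini-Hochberg adjusted), against 191 of the 23256 probes tested (0.821%), of which 124 (0.533%) were higher and 67 (0.288%) lower with fipronil. For 8 of the 10 genes every probe was saturated, that is, at the upper limit of the scanner, in some or all rats, and the level is only a lower bound there. The genes that could be compared were Lcat and, through 4 of its 5 probes, Apob. Their differences lay within the spread between rats, with 95% intervals from 0.835-fold to 1.30-fold.

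Fipronil arrays were brighter than vehicle arrays. Their 75th percentile of spot intensity averaged 209.9 ± 25.8 (SD, n = 8), against 171.5 ± 33.3 (SD, n = 7) on vehicle arrays, a log2 difference of 0.31 (two-sided exact permutation p = 0.0205). Signal below means log2 intensity relative to that percentile of the same array. Probes at the scanner limit numbered 139 to 195 on fipronil arrays and 91 to 174 on vehicle arrays. The tissue was checked with 12 hepatocyte marker genes, which were all measured, and 8 of them had a probe at the limit. The brightest probes of the other 4 all had negative log2 differences, with a median of -0.19, and 0 of the 17 hepatocyte marker probes were called by limma (11 at an unadjusted p under 0.05, lowest adjusted p 0.117). Of all probes tested, 17.2% had an unadjusted p under 0.05. Of the 17 marker probes, 12 were at the limit on some array, where the scaled signal falls as the array gets brighter. Median differences were 0.35 over 6 endothelial genes, 0.45 over 4 genes of lymphocytes and NK cells, 0.23 over 4 of neutrophils and erythroid cells and 0.19 over 9 of Kupffer cells and macrophages. They were -0.01 over 8 genes of stellate cells and fibroblasts, -0.08 over 5 of cholangiocytes and -0.13 over 2 of intestine. The summed log2 level of the endothelial markers was 6.18 to 7.13 in fipronil rats and 5.91 to 6.39 in vehicle rats. The part of these markers in the results below was not tested. These 7 other lists had 0 of 47 probes called by limma, with a lowest adjusted p of 0.105. An unadjusted p under 0.05 was found for 8 of the 47, a share near the 17.2% of all probes tested. In pieces of whole liver, fewer cells of a type and less RNA per cell cannot be told apart.

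Of the 15 probes, 6 were saturated in all 15 rats. They covered Apoa2, the second protein of HDL, Apoc1, Apoc2, the cofactor of lipoprotein lipase, Apoc3, an inhibitor of that lipase, and Apoe, the ligand that carries remnants to LDL receptor family members. Apoc2 intensity was 66742, 69301 and 71471 (lowest, median and highest) in fipronil rats, against 66879, 68793 and 71548 in vehicle rats. Apoe intensity was 56149, 58505 and 60220 in fipronil rats, against 56880, 58392 and 60381 in vehicle rats. For both genes the ranges of the groups nearly coincided. These are values at the scanner limit, so they do not show whether the transcripts differed.

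Apoa2 intensity ran from 61861 through a median of 65189 to 68142 in fipronil rats, against 59309, 65221 and 66858 in vehicle rats. Apoc1, which hinders lipoprotein binding to receptors, gave 59141, 60046 and 62853 in fipronil rats, against 58487, 59777 and 62609 in vehicle rats. Apoc3 probe 1 gave 57851, 59501 and 60785 in fipronil rats, against 56997, 58774 and 61259 in vehicle rats. The groups overlapped at each of these probes. Apoc3 probe 2 gave 72222, 76580 and 81951 in fipronil rats, against 74880, 75809 and 85873 in vehicle rats. All raw spot means of the 6 probes lay between 64152 and the scanner maximum of 65535. The intensities given here are background subtracted and detrended, and some lie above that maximum. Levels of the 6 probes are lower bounds in every rat, so no fold is given for them.

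**Figure D1:**
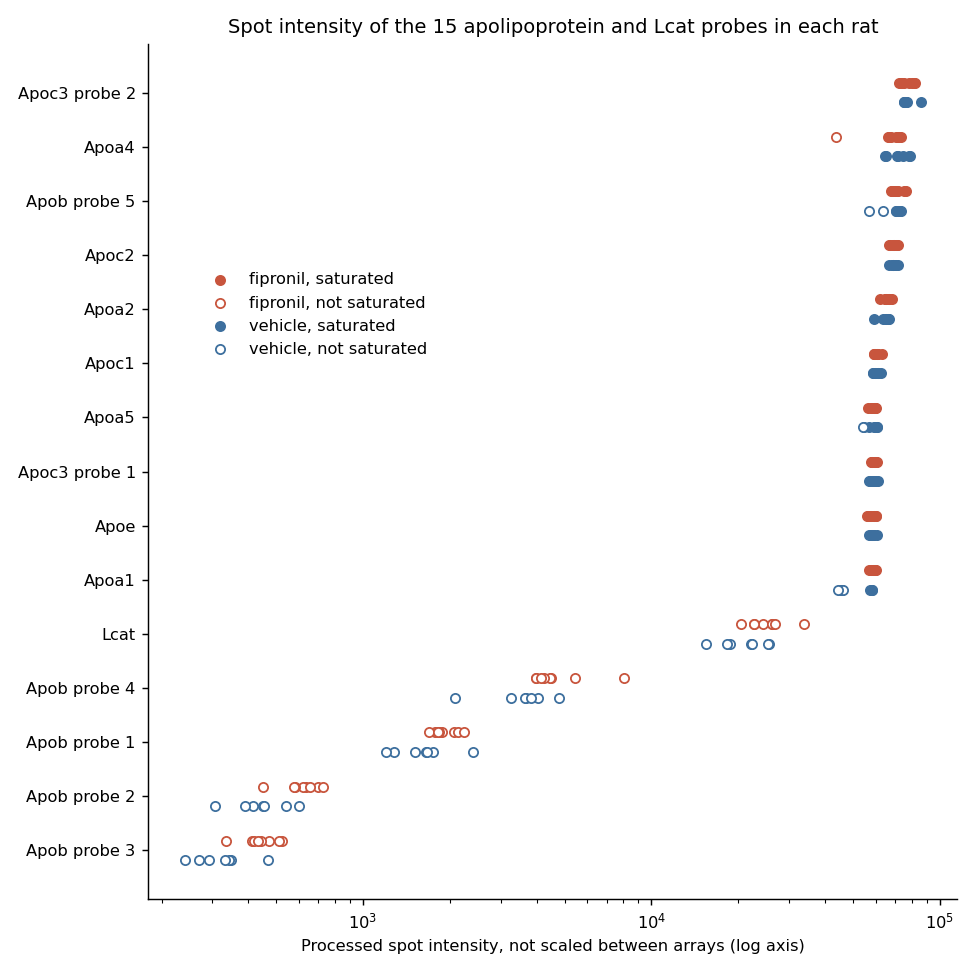
Processed spot intensity (log axis, not scaled between arrays) of the 15 probes in each rat, with fipronil rats above vehicle rats in each row and filled points for saturated spots. Apob probes are numbered by position. Saturated spots crowd at the right edge, and only Lcat and Apob probes 1 to 4 are open points in all 15 rats.

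Scaling set these common ceiling values apart. The 6 probes had mean signals of 8.13 to 8.53 in fipronil rats and 8.44 to 8.84 in vehicle rats. Their unscaled log2 intensities differed by only -0.0045 to 0.019. The adjusted p of the scaled values was 0.193 to 0.255 (limma). The same was seen over all 83 probes of the array that were saturated in every rat: their median log2 difference was -0.31 after scaling and -0.0039 before it, against -0.02 after scaling over all probes tested. A probe held at one intensity takes the inverse of its array's brightness once scaled, so no direction of the transcript is read from these values.

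**Figure D2:**
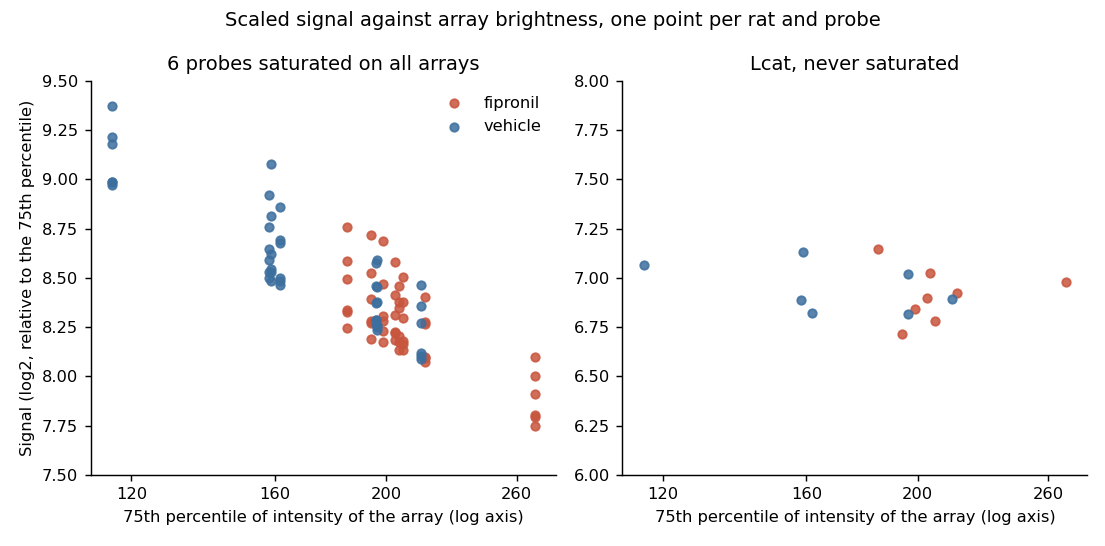
Scaled signal (log2) against the 75th percentile of intensity of the array (log axis), with 1 point per rat for each of the 6 probes saturated on all arrays (left) and for Lcat (right). The saturated probes are lowest on the brightest fipronil array and highest on the dimmest vehicle array, whereas Lcat lies between 6.72 and 7.15 throughout.

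Another 4 probes were saturated in some rats only. Apoa1 encodes apolipoprotein A-I, the main protein of HDL and the activator of LCAT. Its probe was saturated in 8 of 8 fipronil rats and 3 of 7 vehicle rats, with intensities of 56801, 59051 and 60013 in fipronil rats, against 44250, 46329 and 58214 in vehicle rats. The 4 unsaturated vehicle rats, at 44250 to 46329, all lay below every fipronil rat before scaling. After scaling they had signals of 7.86 to 8.58, while the fipronil rats had lower bounds of 7.79 to 8.26. The mean over the bounds in fipronil rats was 8.14. The vehicle mean of 8.22 includes 3 saturated rats and is a lower bound too. With both means only bounded from below, no limit on a fold could be set in either direction. The 75th percentile was 115 to 196 on the 4 vehicle arrays that were below the limit and 185 to 270 on the fipronil arrays. The part of this brightness in the Apoa1 pattern was not tested.

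Apoa4, made by intestine and by rodent liver and carried on chylomicrons and HDL, was saturated in 7 of 8 fipronil rats and 7 of 7 vehicle rats. Its intensity was 43553, 69241 and 73667 in fipronil rats, against 64719, 71567 and 78607 in vehicle rats. Fipronil rat 1 stood alone at 43553, a measured signal of 7.72 on an array with a 75th percentile of 207. In the other 14 rats the lower bounds of signal were 8.06 to 9.28, and the lowest of them was 1.27-fold above that rat. Apoa4 also had the lowest adjusted p of the 15 probes (0.178, limma on scaled values), a value that rests on saturated spots in 14 rats.

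Apoa5, a liver protein that promotes hydrolysis of triglyceride by lipoprotein lipase, was saturated in 8 of 8 fipronil rats and 6 of 7 vehicle rats. Intensities of its probe were 56277, 59273 and 59958 in fipronil rats, against 54179, 58936 and 60672 in vehicle rats. Apob probe 5 was saturated in 8 of 8 fipronil rats and 5 of 7 vehicle rats. It gave 68022, 70528 and 76160 in fipronil rats, against 56810, 70610 and 73464 in vehicle rats. The vehicle rats below the limit, rat 7 for both probes and rat 2 for the Apob probe, included the dimmest array of the study. Of the 15 probes, 9 had an unadjusted p under 0.05 in the scaled comparison, where 17.2% of all probes tested did, and all 9 were saturated in at least 1 rat. In none of the 15 did the scaled signals of the groups lie apart, as they did for 0.598% of all probes tested. With so small a share over all probes, this is no result about the members. It also rests on saturated spots at 10 of the 15 probes.

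Lcat was the only gene measured below the limit by its sole probe (rn4 chr19:35781616-35781675). Its signal was 6.72, 6.91 and 7.15 (lowest, median and highest) in fipronil rats, against 6.82, 6.89 and 7.13 in vehicle rats. The groups covered almost the same range. The means were 6.91 ± 0.14 (SD, n = 8) in fipronil rats and 6.95 ± 0.12 (SD, n = 7) in vehicle rats. The log2 difference was -0.04 (SE 0.08, 95% interval -0.21 to 0.14, limma adjusted p = 0.871), which corresponds to an interval of 0.866-fold to 1.10-fold. On the 4 slides taken one by one it was -0.01, -0.05, -0.20 and 0.03. The sign turned with the scaling: without any scaling the difference was 0.27, where the median of all probes was 0.29, and with scaling to the median it was 0.03.

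Apob encodes the structural protein of very low density lipoprotein, and in rat liver its messenger RNA is in part edited to encode the shorter apolipoprotein B-48. Its 5 probes lay along rat chromosome 6 in build rn4, numbered here by position. Probe 4 (chr6:31546292-31546351) had signals of 4.29, 4.45 and 4.90 in fipronil rats, against 4.17, 4.36 and 4.56 in vehicle rats. The groups overlapped over most of their range. Means were 4.50 ± 0.21 (SD, n = 8) in fipronil rats and 4.38 ± 0.15 (SD, n = 7) in vehicle rats, a log2 difference of 0.12 (SE 0.10, interval -0.10 to 0.33, limma adjusted p = 0.598). Within the 4 slides it ran from 0.001 to 0.25. It was 0.06 without fipronil rat 2 and 0.0055 with array brightness as a covariate. Without scaling it was 0.42 (limma adjusted p = 0.125), where the median of all probes was 0.29.

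Probes 2 (chr6:31539136-31539195) and 3 (chr6:31539276-31539335) are close neighbours. Probe 2 gave signals of 1.28, 1.57 and 1.91 in fipronil rats, against 1.08, 1.46 and 1.51 in vehicle rats. Its log2 difference was 0.16 (SE 0.10, interval -0.04 to 0.36, limma adjusted p = 0.414), and 6 of 8 fipronil rats lay above the vehicle mean. Probe 3 gave 0.72, 1.07 and 1.43 in fipronil rats, against 0.57, 1.04 and 1.14 in vehicle rats. Its log2 difference was 0.14 (SE 0.11, interval -0.10 to 0.38, limma adjusted p = 0.572), and the medians of the groups nearly coincided. Within slides probe 2 differed by -0.01 to 0.31 and probe 3 by -0.18 to 0.37. With 1 rat left out the difference ran from 0.11 to 0.20 for probe 2 and from 0.08 to 0.19 for probe 3, where the lowest value was that without vehicle rat 4. Without scaling it was 0.47 for probe 2 (limma adjusted p = 0.0738) and 0.45 for probe 3 (0.0771), where the median of all probes was 0.29. Probe 1 (chr6:31536084-31536143) had signals of 2.94, 3.18 and 3.42 in fipronil rats, against 2.95, 3.36 and 3.49 in vehicle rats, a log2 difference of -0.04 (SE 0.10, interval -0.26 to 0.18, limma adjusted p = 0.881). Slide by slide, probe 1 differed by -0.41, 0.29, 0.19 and -0.11, so its direction was not the same across slides. The difference of probe 1 also changed sign with scaling to the median (0.02) and without scaling (0.27). Levels of different probes of a gene are not comparable on these arrays, because each probe binds its target with its own strength.

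**Figure D3:**
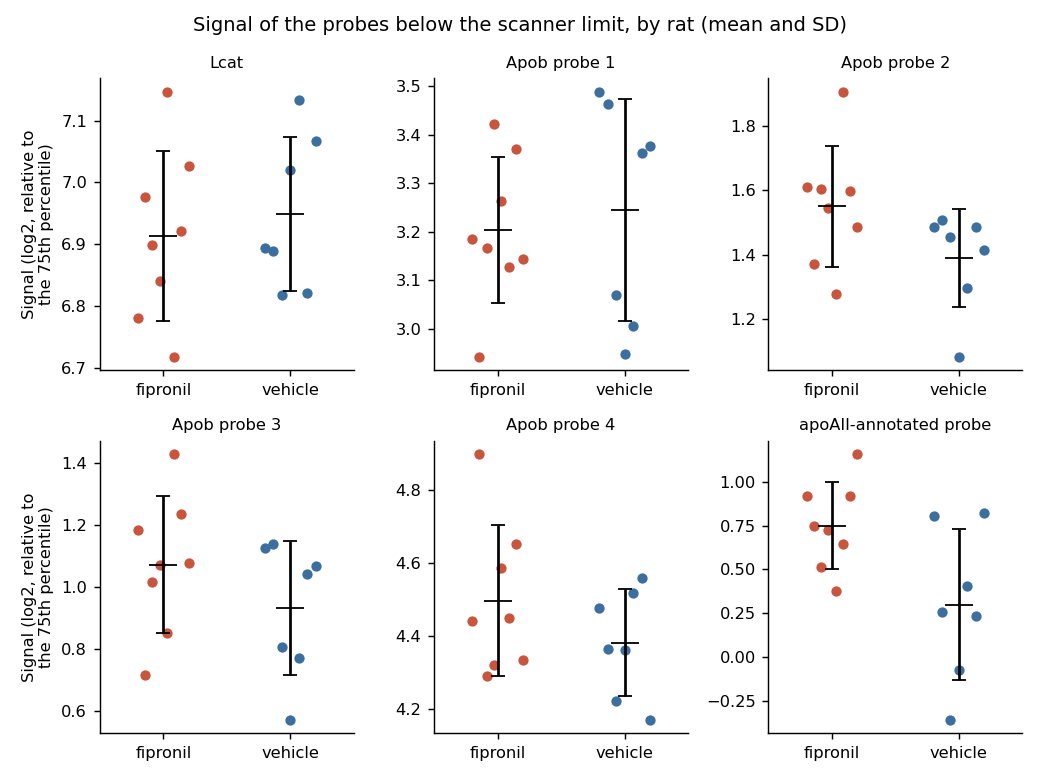
Signal (log2, relative to the 75th percentile of the array) of the 5 member probes below the scanner limit in all rats, and of a probe annotated as apolipoprotein A-II. Each point is a rat, and bars show the mean and SD of 8 fipronil rats (left) and 7 vehicle rats (right); the groups overlap in every panel.

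One further probe, outside the naming rule, is annotated in the array files as a partial rat apolipoprotein A-II messenger RNA and was never saturated. Its intensity was 240, 360 and 458 in fipronil rats, against 153, 190 and 375 in vehicle rats, and its signal averaged 0.75 ± 0.25 (SD, n = 8) in fipronil rats and 0.30 ± 0.43 (SD, n = 7) in vehicle rats. All 8 fipronil rats were above the vehicle mean. The log2 difference of 0.45 (SE 0.17, interval 0.09 to 0.81) had a limma adjusted p of 0.196, and was 0.30, 0.84, 0.11 and 0.51 within the 4 slides. The difference passed only in the fit without scaling, at 0.76 (adjusted p = 0.0368), where the median of all probes was also raised. Its place in the transcript was not analysed here.

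How the members varied from rat to rat could be followed only at the 5 unsaturated probes. With group means taken out, Lcat and Apob probe 4, the brightest measured Apob probe, were not related over the 15 rats (Pearson r = 0.18, permutation p = 0.559, Spearman rho = 0.09, permutation p = 0.753). Over all 10 pairs of probes, Apob probes 2 and 3 varied together (r = 0.89, permutation p = 8e-05, adjusted 0.00080 over 10 pairs; rho = 0.81, permutation p = 0.00052, adjusted 0.00510). Lcat ran opposite to Apob probe 2 (r = -0.78, permutation p = 0.00114, adjusted 0.00570; rho = -0.79, permutation p = 0.00102, adjusted 0.00510). Without the 2 rats farthest from the median, r was 0.83 for the pair of Apob probes and -0.72 for Lcat with probe 2. With slide means taken out r was 0.91 and -0.88. Apob probes 1 and 3 also had r = 0.68 (permutation p = 0.00852, adjusted 0.0284), but rho was 0.64 (permutation p = 0.0190, adjusted 0.0633) and r was 0.45 without the 2 rats farthest from the median. Apob probe 4 had r of -0.17 to -0.27 with the other measured Apob probes, none past the threshold. All 5 values of a rat share 1 array and 1 scaling, and their part in these correlations was not tested.

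The genes of several members lie side by side. In rn4, the probes of Apoa4 (chr8:49233335-49233394) and Apoa5 (chr8:49255236-49255295) are neighbours, as are those of Apoc2 (chr1:78979140-78979199), Apoc1 (chr1:78996746-78996805) and Apoe (chr1:79003795-79003854). HNF4, a nuclear receptor of hepatocytes, binds and drives many apolipoprotein promoters. Upstream windows of 250 bases (RefSeq, build GRCr8) were at hand for 6 of the 10 genes, in 10 windows. The core of the HNF4 site was searched on both strands as AAAGTCC, and the TATA box as TATAAA on the gene's strand. Of 33469 such windows of all RefSeq genes, 1335 (3.99%) held the first motif and 2696 (8.06%) the second. Apoa4 and Apoc2 held the HNF4 core, and Apoc2 and Apoa5 the TATA box, while Apoc1, Apoe and Lcat had neither in these windows. Saturated probes occurred with and without the core: Apoc1 and Apoe, saturated in 15 rats, and Apoa5, saturated in 14, had no HNF4 core in their windows. The windows of Apoa4 (chr8:55435529-55435778, plus strand), Apoc2 (chr1:88462366-88462615, minus strand) and Lcat (chr19:50748065-50748314, minus strand) are shown 5′ to 3′ on the gene's strand. They set genes with the HNF4 core beside a gene without it, and capitals mark the matches of either motif.
Apoa4: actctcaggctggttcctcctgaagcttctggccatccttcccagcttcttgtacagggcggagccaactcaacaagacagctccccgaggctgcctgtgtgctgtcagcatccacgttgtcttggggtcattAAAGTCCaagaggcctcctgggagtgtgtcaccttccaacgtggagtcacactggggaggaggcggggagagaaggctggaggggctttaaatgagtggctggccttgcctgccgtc
Apoc2: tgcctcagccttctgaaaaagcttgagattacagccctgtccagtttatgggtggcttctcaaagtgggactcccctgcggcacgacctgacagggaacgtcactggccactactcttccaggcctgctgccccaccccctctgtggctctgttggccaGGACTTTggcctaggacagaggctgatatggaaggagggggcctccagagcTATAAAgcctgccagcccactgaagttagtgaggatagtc
Lcat: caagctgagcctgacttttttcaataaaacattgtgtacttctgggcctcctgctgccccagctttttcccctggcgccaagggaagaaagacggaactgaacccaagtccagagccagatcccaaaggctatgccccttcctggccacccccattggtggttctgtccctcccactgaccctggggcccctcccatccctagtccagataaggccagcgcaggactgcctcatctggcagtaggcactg
In Apoa4 the match begins 117 bases before the start of transcription. In Apoc2 the HNF4 core, read on the opposite strand, begins 91 bases before it and the TATA box 40 bases before it. A match of letters is not evidence of binding.

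Genes that act with the members were taken from 6 lists of the lipoprotein pathway, and 1 of their 116 probes tested passed (0.862%), a share near the 0.821% of all probes and so no result about the lists. That probe measured Bmp1, a protease of procollagen that in humans also trims the propeptide of apolipoprotein A-I, and it fell. Bmp1 signal was 5.56, 5.65 and 5.90 in fipronil rats, against 5.98, 6.15 and 6.36 in vehicle rats, so the groups did not overlap. The means were 5.69 ± 0.11 (SD, n = 8) in fipronil rats and 6.14 ± 0.13 (SD, n = 7) in vehicle rats, a log2 difference of -0.46 (SE 0.08, limma adjusted p = 0.00882). It was -0.53, -0.24, -0.42 and -0.65 within the 4 slides. The call was lost without slide 1 (-0.43, adjusted p = 0.160), without slide 4 (-0.38, 0.203), with the replicate number as a block (-0.44, 0.0899), with array brightness as a covariate (-0.35, 0.135) and without scaling (-0.15, 0.356). Bmp1 is also expressed by stellate cells and fibroblasts, whose 8 measured markers had a summed log2 level of 5.19 to 5.99 in fipronil rats and 5.22 to 5.83 in vehicle rats.

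Among genes for HDL formation and remodelling, 0 of 15 probes were called higher and 1 was called lower, with a median log2 difference of 0.07 over the brightest probe of each of 11 genes. Soat2, which esterifies cholesterol for secretion, differed by -0.37 (limma adjusted p = 0.102). Among 8 other apolipoprotein genes, 0 of 11 probes were called, and 3 genes had a saturated probe. Apom, a carrier of sphingosine 1-phosphate on HDL, averaged 0.47 ± 0.23 (SD, n = 8) in fipronil rats and 0.96 ± 0.30 (SD, n = 7) in vehicle rats at its unsaturated probe, a log2 difference of -0.49 (limma adjusted p = 0.0954). Within the 4 slides this probe differed by -0.65, -0.07, -0.23 and -0.95. The other Apom probe, saturated on 4 arrays, is a bound there. Saa4, a serum amyloid A of HDL, had 1 probe saturated in all rats and another that differed by -0.20 (limma adjusted p = 0.598).

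For assembly and secretion of apolipoprotein B particles, 0 of 26 probes of 17 genes were called, with a median of 0.04. Mia2, which helps large cargo leave the endoplasmic reticulum, differed by 0.39, 0.31 and 0.23 at its 3 probes (limma adjusted p = 0.0992, 0.120 and 0.378). Sar1b, the GTPase of the vesicle coat used for that step, differed by 0.21 (limma adjusted p = 0.265). The smallest Mia2 difference, 0.23 (interval -0.04 to 0.51), was at its brightest probe, with mean signals of 4.51 in fipronil rats and 4.28 in vehicle rats. The other Mia2 probes averaged 1.66 and 0.63 in fipronil rats, against 1.27 and 0.32 in vehicle rats. Mia2 and Sar1b were named for the smallest p of this list, and none of their probes passed the test. Over the list, 10 genes lay above 0 and 7 below at their brightest probe.

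Lipases and their regulators had 0 of 10 probes called and a median of -0.06. Angptl4, an inhibitor of lipoprotein lipase, differed by -0.29 (limma adjusted p = 0.410).

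Lipoprotein receptors and clearance genes had 0 of 17 probes of 14 genes called, with a median of -0.17. Lrp1, a receptor for remnants that carry apolipoprotein E, had signals of 3.28, 3.64 and 4.01 in fipronil rats, against 4.02, 4.08 and 4.72 in vehicle rats at its brighter probe. The groups met without overlapping, and the log2 difference was -0.59 (SE 0.14, limma adjusted p = 0.0607). The second Lrp1 probe, with mean signals of -0.73 in fipronil rats and -0.06 in vehicle rats, differed by -0.66 (limma adjusted p = 0.0883). Lrp8, another receptor of apolipoprotein E, differed by -0.46 (limma adjusted p = 0.0898). Vehicle rat 3 bore on these calls: without it Lrp1 (-0.63, adjusted p = 0.0492), Lrp8 (-0.53, 0.0396) and Apom (-0.57, 0.0425) passed. Leaving out that rat also raised the calls over all probes from 191 to 307. Over all alternatives the brighter Lrp1 probe differed by -0.70 to -0.28, Lrp8 by -0.55 to -0.15 and Apom by -0.65 to -0.18. Limma adjusted p reached 0.349, 0.595 and 0.625 for them. The Lrp8 probe was dim, with mean signals of -1.87 in fipronil rats and -1.41 in vehicle rats. Of the regulators of apolipoprotein transcription, 0 of 37 probes of 33 genes were called, with a median of -0.02. Those with the smallest p were Esr1, the oestrogen receptor alpha, at -0.59 (limma adjusted p = 0.143), and Nr1h4, the bile acid receptor FXR, at 0.46 (0.152). The Esr1 probe was dim, with mean signals of -3.50 in fipronil rats and -2.91 in vehicle rats. It was above background in only 6 of 8 fipronil rats. Within the 4 slides Esr1 differed by -0.77, -1.02, 0.02 and -0.55.

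**Figure D4:**
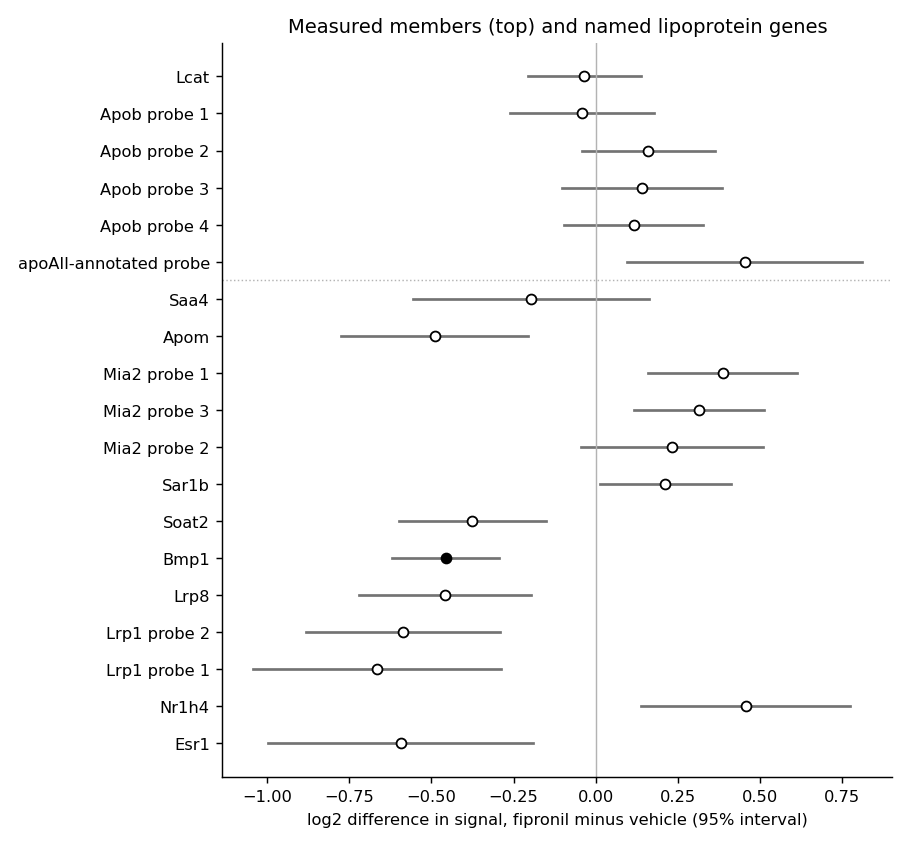
Log2 difference in signal, fipronil minus vehicle, with 95% intervals, for the measured members and the apoAII-annotated probe (above the dotted line) and for the unsaturated probes of named genes of 5 pathway lists (below it; lipases and their regulators are not drawn). The filled point, Bmp1, is the only one that passed an adjusted p of 0.05; the intervals of Lcat and the 4 Apob probes all include 0.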

How the data were processed

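Liver RNA of each rat (RIN above 8.7, 1 µg labelled with Cy3) was hybridised to 1 Agilent array, per the labels. Spot intensity values were written by Agilent Feature Extraction 9.5.3.1, background subtracted and detrended but not scaled between arrays, per the file headers; the same files mark saturated, outlier and well above background spots. The deposited value table of the authors holds log2 values with a highest value of 16 and column medians of 7.651 to 7.661 for 22244 probes, and was used as an alternative; its centring beyond these medians is not stated. Per the submitters' processing notes limma was used.

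From these, outlier spots were left out and log2 processed intensity minus the 75th percentile of the array (signal) was taken per probe. Probes marked above background on 7 or more arrays were fitted with limma 3.58.1 (lmFit, eBayes, two-sided) in R 4.3.3, without covariates, and called at a Benjamini-Hochberg adjusted p under 0.05 over 23256 probes. Correlations used scipy 1.17.1 and 100000 permutations within groups. SD is over rats and SE is of the fitted difference. The number of arrays limits the precision. Slide differences of the 15 probes had adjusted p of 0.322 to 0.973 (limma F test with group and slide). Of the 23256 probes tested, 497 differed between slides at an adjusted p under 0.05. For the 10 member probes saturated on some array, the slide test rests on values at the scanner limit.

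Members and lists were chosen with earlier results of these data known. Of each pathway list, every called gene was named and, with fewer than 2 called, those with the 2 smallest p; 1 gene chosen so is not reported here. Coordinates are rn4, per the file headers, for 12 of the 15 probes; no genome of that build was used. Scripts were tested on simulated data. Alternatives covered background correction, scaling, filters, saturated spots, slide, replicate number, array brightness, weights and each rat left out.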

Additional observations from a re-analysis of the deposited data

Results flagged for a closer look

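Among 32 sets of rats tested for a value far from the rest, 2 stood out, and chance alone gives about 1 in 20. Apoa4 intensity was 43552.9 in fipronil rat 1, the lowest of its group, with the nearest other fipronil rat at 66097; it was the sole unsaturated Apoa4 spot. Apoc3 probe 2 intensity was 85872.7 in vehicle rat 5, the highest of its group, with the nearest other vehicle rat at 76710. All those Apoc3 spots were saturated, so the gap is one between corrected ceiling values.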

How the results depend on the processing

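The count of 0 member probes called held under all 34 alternatives, and saturated probes were left out in 1 of them, where 5 member probes remained. Over all probes, 191 calls became 705 without scaling, 90 without the filter on dim probes, 37 without slide 1, 45 without slide 4, 42 with array brightness as a covariate, and 102 to 307 with 1 rat left out; the cause was not tested. Calls were 124 higher and 67 lower as reported, 686 and 19 without scaling, and 184 and 53 with median scaling; the median of all probes moved to 0.29 without scaling. Differences that changed sign were those of Lcat (0.27 without scaling, 0.0297 with median scaling, 0.0038 with the brightness covariate), Apob probe 1 (0.27, 0.0232 and 0.0433 under the same, and 0.10 without slide 1), Saa4 (0.11) and Angptl4 (0.0187), the last 2 without scaling.

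The probe called for HDL formation became 0 without slide 1, without slide 4, with the replicate block and with the brightness covariate, and without scaling the 1 call was Lipc in place of Bmp1. Counts rose to 2 without scaling and 1 in the authors' table for assembly of apolipoprotein B particles, and to 1 without scaling for regulators. They rose to 1 for receptors without scaling, without slide 3 and with trended robust variance (0 to 2 with 1 rat left out). For lipases they rose to 1 under 9 settings (both quantile normalizations, no scaling, median scaling, detection on all arrays, without slide 3, array weights, trended robust variance and the authors' table; 0 to 1 with 1 rat left out). Other apolipoproteins gave 0 to 1 with 1 rat left out. Rats with the same replicate number deviated together in 3 of 7 pairs (correlations -0.04 to 0.37), and 3 fipronil rats were nearest to their own number. These values do not settle whether the numbers mark pairs. Rats of the same number shared a slide, except for number 6, so number and slide cannot be told apart. The number was therefore used only as an alternative. With the replicate number as a block 97 probes and 0 member probes were called. Choosing the brightest probe of each gene leaves only the saturated Apob probe. Saturation limits what 10 of the 15 probes can show.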
